A study of Mus musculus with 16 samples.

Results

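The insulin receptor, PI3K-AKT and mTOR pathway was followed as a set of 38 named genes in AML12 cells, a mouse hepatocyte line. A gene belonged to the set when the gene name printed for a probe on the array equalled one of the 38 names. All 38 were on the array, out of 30214 gene names in all. The set was read as 8 genes at the level of the receptor, 12 genes of the PI3K-AKT step, 17 genes of the TSC-mTORC1 step and 1 gene of mTORC2. Of these, 36 gave a signal that could be tested, as did 19367 gene names over the whole array. The scaffold of mTORC2, Rictor, was the only member of that part, and the receptor adaptor Grb10 and the exchange factor Sos1 were left untested because their single probes rose well above background on 1 and 0 of the 16 arrays.

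The study compared AML12 cells carrying an eIF6 shRNA with cells carrying a scramble shRNA, to ask how the initiation factor eIF6 affects translation after insulin. Both lines received doxycycline, which switches the shRNA on, and insulin for 1 hour, given as 100 nM in the sample descriptions and as 100 mM in the treatment protocol. RNA of the polysomal fraction (mRNA bound by several ribosomes) and of the subpolysomal fraction (lighter mRNA) was hybridised to one-colour Agilent arrays. Each of the 4 groups had 4 replicates, with 1 array of every group on each of 4 slides. Whether polysomal and subpolysomal arrays with the same replicate number came from the same culture is not stated in the labels. Every sample was exposed to insulin and doxycycline, and the growth medium itself held an insulin supplement, serum and dexamethasone, so the comparisons concern the shRNA and the fraction and not the response to insulin. The labels do not say whether either line was 1 clone.

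Insulin binding activates the receptor tyrosine kinase, which phosphorylates IRS proteins, and these recruit PI3K to the membrane. The lipid that PI3K makes brings AKT to PDK1 and mTORC2, and AKT in turn restrains GSK3 and the TSC complex. With TSC off, Rheb switches on mTORC1 at the lysosome, where Rag GTPases report amino acids, and mTORC1 acts on S6 kinases and 4E-BPs to raise translation. In hepatocytes the route is known for its control of glycogen and lipid synthesis. The arrays measured the mRNAs of these proteins, not their phosphorylation.

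Values are log2 signals of background-corrected probes after quantile normalisation, averaged over the probes of a gene. A difference is therefore relative to all genes on the same arrays. A gene is said to have risen or fallen when the adjusted p of limma, computed over 19367 genes, was under 0.05. Replicate arrays of a group correlated between 0.988 and 0.995 over the 19320 genes with a value on every array, and no pair of arrays held identical values. The median number of probes well above background ran from 21460.5 in subpolysomal eIF6 shRNA samples to 23971.5 in polysomal scramble samples. Of 10 hepatocyte markers, 8 were well above background on all 16 arrays, while albumin reached that level on 7 of 16 and apolipoprotein A1 on 3 of 16. Of 5 stellate cell and fibroblast markers, 3 were detected on all 16 arrays, and the 4 that could be tested were all lower in polysomal RNA of eIF6 shRNA cells (Col1a1 at 10.6 against 13.8). In such bulk samples, fewer cells of a type and less RNA per cell cannot be told apart. Whether this difference between the lines had a part in the results below was not tested. Eif6 itself, the targeted gene, fell by 1.05 (SE 0.079) in polysomal RNA (limma, adjusted p = 1.46e-07), from 12.95 ± 0.01 to 11.89 ± 0.08 (SD, n = 4). This averages Eif6 probes that gave -1.38, -1.26 and -0.52, the last being the dimmest. In subpolysomal RNA its level was 11.60 ± 0.06 in scramble and 11.61 ± 0.14 in eIF6 shRNA cells (adjusted p = 0.916).

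Probes differed in how firmly they read a member, and 4 of them carry the results below. They are shown by their first 30 bases of 60 (5′ to 3′, as printed in the array files), with mm9 coordinates of the whole probe. The single probe of Rragd lies at chr4:33106184-33106243 on the plus strand and that of Pdcd4 at chr19:54004105-54004164 on the plus strand. For Rheb, the probes A_55_P2170139 (chr5:24309069-24309128) and A_55_P2129034 (chr5:24309059-24309118), both on the minus strand, share 50 bases and are shifted by 10. Capitals mark the shared bases within the stretch shown.
Rragd: aatttgggactctttgctgccagttgtcaa
Pdcd4: ctgtgctttgagagtaaacacacacacaca
Rheb, A_55_P2170139: atatcagtgtTTATTTCATTGTGTTAAATG
Rheb, A_55_P2129034: TTATTTCATTGTGTTAAATGtatacttgta

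In scramble cells, more pathway mRNAs were relatively higher in polysomal than in subpolysomal RNA than the reverse. Of 36 members, 16 were higher in polysomal than in subpolysomal RNA (44.4%), against 31.7% of all genes tested, and 4 were lower (11.1%), against 28.4% of all genes. The median difference was 0.35 on the log2 scale over the members and 0.04 over all genes. The 16 higher members were 5 of 6 at the receptor level, 6 of 12 in PI3K-AKT and 5 of 17 in TSC-mTORC1, and the 4 lower ones were 3 of 17 in TSC-mTORC1 and Rictor. Without Grb14 and Rragd, which were not well above background in at least 1 group, 15 of 34 members were higher and 4 lower. With 75th percentile scaling the calls of Insr (0.16, adjusted p = 0.532), Irs1 (0.53, adjusted p = 0.227), Grb14 and Mtor were lost, which left 2 of 6 higher members at the receptor level, while Inppl1 was called higher and Tsc2 lower.

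At the receptor level, the insulin receptor Insr was read by 3 probes. Its scramble values were 5.05, 5.44, 5.60 and 5.06 in subpolysomal RNA and 5.80, 5.93, 5.68 and 6.19 in polysomal RNA. The fractions did not overlap, and the difference was 0.61 (SE 0.22, limma adjusted p = 0.0263), although leaving out any of 4 scramble arrays took the adjusted p to between 0.0518 and 0.0764. The docking protein Irs1, which carries the signal from receptor to PI3K, was 0.92 higher on polysomes (SE 0.34, adjusted p = 0.0314). Of its values of 5.49, 6.56, 5.50 and 5.64 in polysomal RNA, replicate 2 stood above the other 3, and without it the difference was 0.67 (adjusted p = 0.109). Leaving out subpolysomal replicate 1 or 4 also ended the call (adjusted p = 0.0859 and 0.0626). One of its 2 probes was well above background on 0 of 4 subpolysomal arrays, and the other gave a difference of 0.54. Irs2, the other main docking protein of the liver, stayed near 0 (0.09, 95% CI -0.33 to 0.51). The adaptor Shc1 (0.46, adjusted p = 0.00201) and the tyrosine phosphatase Ptpn1, which switches the receptor off (0.55, adjusted p = 0.00464), were also higher on polysomes. Grb14, an adaptor that inhibits the receptor kinase, passed only through its polysomal scramble arrays, so it had to differ, and its difference had no usable size.

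In the PI3K-AKT step, 4 of 6 subunits of the lipid kinase and both GSK3 genes were higher in polysomal RNA, and neither AKT gene passed the test. The catalytic subunit p110 alpha, Pik3ca, read 6.73, 6.98, 6.69 and 6.07 in subpolysomal and 7.59, 7.72, 7.43 and 7.26 in polysomal scramble RNA. These values did not overlap, with a difference of 0.88 (SE 0.18, limma adjusted p = 6.51e-04). Pik3cb differed by 0.58 (adjusted p = 1.64e-05), and the regulatory subunits Pik3r1 and Pik3r2 by 0.77 (adjusted p = 5.37e-05) and 0.63 (adjusted p = 0.00693). Gsk3b (0.71, adjusted p = 2.51e-06) and Gsk3a (0.65, adjusted p = 1.33e-05), the kinases that restrain glycogen synthase, were higher on all 4 slides. The AKT kinases gave -0.10 for Akt1 (95% CI -0.37 to 0.17) and -0.39 for Akt2 (adjusted p = 0.0672). Akt2 was called lower with slide as a block (adjusted p = 0.0216) and with the brightest probe alone (adjusted p = 0.00731). It was also called lower with normexp background correction (adjusted p = 0.0426), with a trended robust fit (adjusted p = 0.0492) and without any of 3 single arrays. With spike-in scaling both AKT genes were called higher on polysomes (1.71 for Akt1, adjusted p = 0.00187, and 1.36 for Akt2, adjusted p = 0.0128), where the median of all genes was 1.52. Pik3cd, Pik3r3, Inppl1 (a phosphatase that removes the lipid signal) and Pdpk1 (the kinase that activates AKT) lay between -0.11 and 0.32 and did not pass.

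The TSC-mTORC1 step held the widest range. Pdcd4, which binds the helicase eIF4A and is degraded after phosphorylation by S6 kinase, read 11.96, 11.52, 11.48 and 11.26 in subpolysomal and 9.07, 8.81, 8.62 and 8.94 in polysomal scramble RNA. Every subpolysomal value was far above every polysomal value. The difference of -2.69 (SE 0.13, limma adjusted p = 5.1e-10) was 6.46-fold, and 258 of the 19367 genes tested had a lower value. At the other end, the GTPase Rheb, which activates mTORC1, was 1.81 higher on polysomes (SE 0.19, adjusted p = 1.4e-06), with subpolysomal values of 3.45, 3.80, 3.22 and 3.65 and polysomal values of 5.59, 5.19, 5.62 and 4.98. The overlapping Rheb probes shown above gave 1.33 (A_55_P2170139) and 2.30 (A_55_P2129034), and the second was not well above background on any subpolysomal array, so that its value is a fitted one. Rragb, a Rag GTPase, was 1.81 higher (SE 0.21, adjusted p = 3.92e-06), from 3.75, 4.18, 4.68 and 4.51 to 6.14, 5.90, 5.83 and 6.49. Another Rag GTPase, Rraga, followed at 0.83 (adjusted p = 0.00113), and Rps6ka1, the p90 S6 kinase RSK1, at 0.35 (adjusted p = 0.00276).

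Of the subunits of the mTOR complexes, Mlst8, which both complexes share, gave -0.51 (SE 0.087, limma adjusted p = 1.37e-04), and its fractions did not overlap. Tsc1, the scaffold of the TSC complex, gave -0.26 (SE 0.082, adjusted p = 0.0127). Rictor gave -0.56 (SE 0.18, adjusted p = 0.0152), with 8.15, 8.06, 8.02 and 7.73 in subpolysomal and 7.39, 7.29, 7.08 and 7.93 in polysomal RNA. Polysomal replicate 4 lay among the subpolysomal values, and leaving out polysomal replicate 3 ended the call (adjusted p = 0.0531). Raptor, the mTORC1 scaffold (Rptor, 0.17), Tsc2 (-0.14), the mTORC1 inhibitor Akt1s1 (0.16), the stress-induced inhibitor Ddit4 (0.02) the Rag GTPase Rragc (0.36) and the S6 kinases Rps6kb1 (-0.03) and Rps6kb2 (0.07) did not pass.

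**Figure D1:**
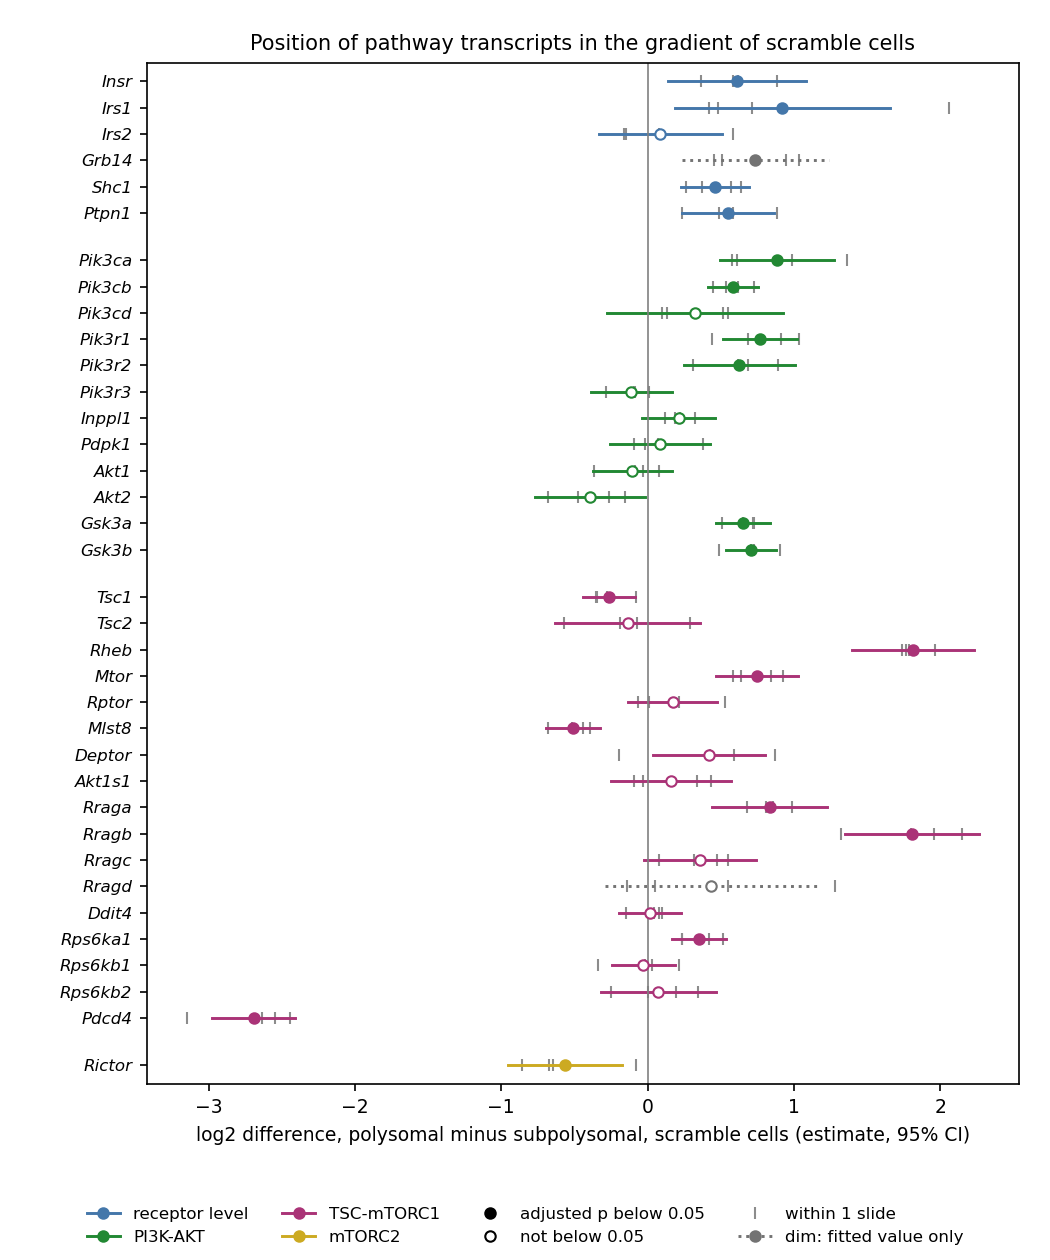
Log2 difference between polysomal and subpolysomal RNA of scramble cells for 36 members, ordered by pathway step, as the limma estimate with its 95% confidence interval and the difference within each of 4 slides (ticks). Filled points passed an adjusted p of 0.05 (16 to the right and 4 to the left), and dotted grey members were not well above background in at least 1 group. Pdcd4 lies at -2.69 and Rragb at 1.81. Rheb, also at 1.81, averages in 1 probe that was not well above background on any subpolysomal array.

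Where a member had several probes, these did not always place it alike. Of 13 such members, Mtor and Deptor disagreed most. For Mtor, the kinase itself, the probe designed to its RefSeq transcript (chr4:147931250-147931309) gave 0.01 and the probe designed to an Ensembl transcript (chr4:147829016-147829075) gave 1.49. The gene's call of 0.75 (adjusted p = 1.74e-04) was lost when the brighter probe alone was used (0.01, adjusted p = 0.972). For Deptor, an inhibitor within both mTOR complexes, the probe at chr15:55083753-55083812 gave 1.82 and the one at chr15:55051739-55051798 gave -0.97. The gene's mean of 0.42 (adjusted p = 0.0537) thus stood for opposite readings, and the brighter probe alone passed (adjusted p = 1.61e-08).

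**Figure D2:**
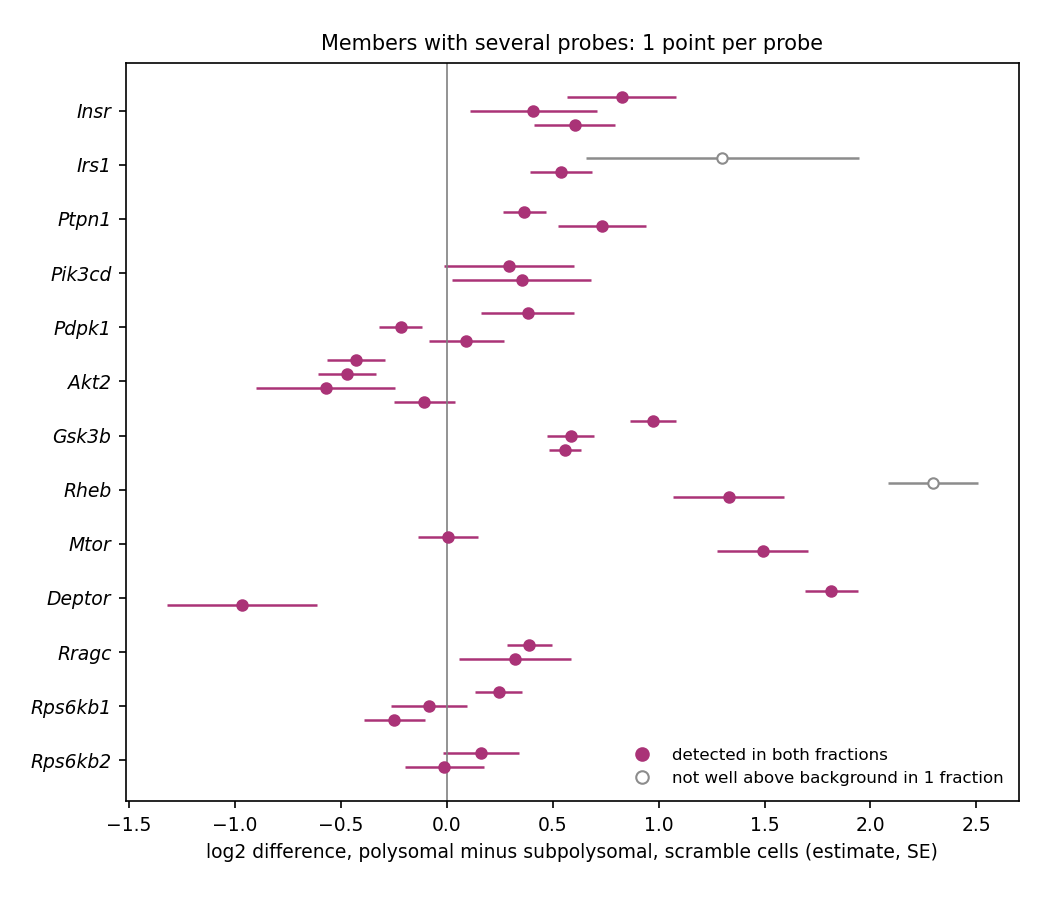
Log2 difference between polysomal and subpolysomal RNA of scramble cells for each kept probe of the 13 members with several probes, with its standard error over 4 arrays a group. Open grey points were not well above background on any array of 1 fraction (1 probe each of Irs1 and Rheb), and the probes of Deptor lie on opposite sides of 0.

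The position in the gradient depended on scaling. With 75th percentile scaling, 13 of 36 members were higher and 5 lower in polysomal RNA. Of all 19367 genes tested, 4997 were then higher and 7313 lower, in place of 6138 and 5498. When arrays were set to 8 spike-in probes, the median of all genes moved to 1.52. Of the 19367 genes, 13324 were then higher and 391 lower, and of the 36 members 33 were higher and 0 lower. Mlst8, Rictor and Tsc1 then changed sign to 1.35, 1.03 and 1.45, all below that median, whereas Pdcd4 stayed negative at -0.86 (adjusted p = 0.116).

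In polysomal RNA of eIF6 shRNA cells, members were called against scramble cells about as often as all genes were. Of 36 members, 3 fell (8.33%) and 3 rose (8.33%), against 10.7% and 11.1% of all genes tested, shares near the background. Pik3cd, Pdcd4 and Grb14 fell, and Rragd, Rps6ka1 and Pik3r1 rose. Grb14 and Rragd entered the test only through the group in which they were high, and without them 2 of 34 fell and 2 rose. The median change was 0.10 over the members and 0.02 over all genes. In subpolysomal RNA, 3 members fell (8.33%, against 12.3% of all genes), namely Pdcd4, Akt1 and Grb14, and Rps6ka1 alone rose (2.78%, against 11.9%). Without Grb14 and Rragd, 2 of 34 fell and 1 rose. The median subpolysomal change was -0.05 over the members and 0.02 over all genes. These polysomal and subpolysomal comparisons use different arrays.

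**Figure D3:**
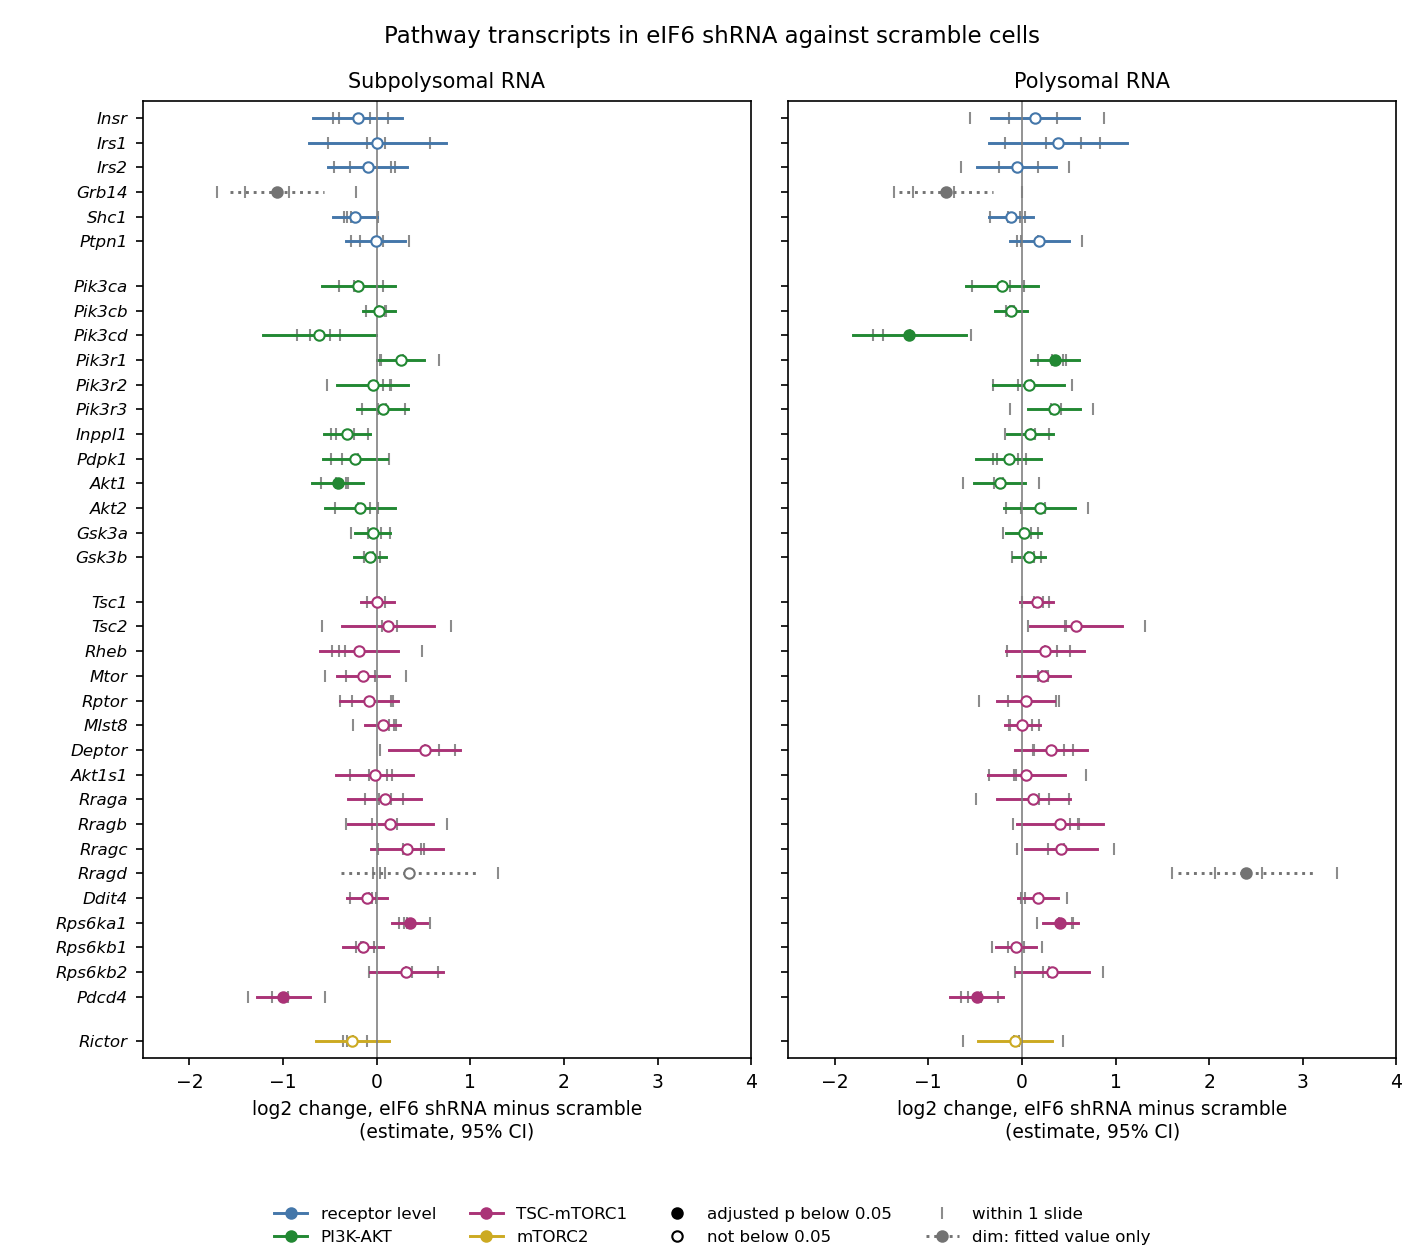
Log2 change in eIF6 shRNA against scramble cells in subpolysomal (left) and polysomal (right) RNA for 36 members, as the limma estimate with its 95% confidence interval and the change within each of 4 slides (ticks). Filled points passed an adjusted p of 0.05 (4 on the left, 6 on the right). Dotted grey members (Grb14 and Rragd) were not well above background in at least 1 group, and their positions are fitted values only.

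Rragd, the Rag GTPase that pairs with RagA or RagB on lysosomes, was well above background on all 4 polysomal arrays of eIF6 shRNA cells and on 0 of the other 12 arrays. It entered the test through that group alone and so had to differ. Its polysomal values were 4.30, 3.60, 4.32 and 3.10 in eIF6 shRNA and 1.50, 0.95, 2.24 and 1.03 in scramble cells. These do not overlap. Against the dimmest signal still well above background on each scramble array, averaged over the arrays, polysomal Rragd was at least 2.19-fold higher in eIF6 shRNA cells. This bound holds for the main processing only. Over the alternative settings the fitted log2 change went down to 0.32. No p is given, since the filter on background fixed the direction. The same filter fixed the direction between polysomal and subpolysomal Rragd in eIF6 shRNA cells, where the bound in the main processing was 1.28-fold. Subpolysomal values of 1.10, 0.95, 0.98 and 0.96 in scramble and 1.04, 2.25, 1.02 and 1.06 in eIF6 shRNA cells were all below background and allow no fold.

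Pdcd4 fell in both fractions. In subpolysomal RNA it went from 11.96, 11.52, 11.48 and 11.26 in scramble to 10.40, 10.70, 10.53 and 10.59 in eIF6 shRNA cells. The change of -0.997 (SE 0.13, limma adjusted p = 6.42e-05), or 2.00-fold, was present on all 4 slides (-1.37 to -0.55), and the values did not overlap. In polysomal RNA the values of 9.07, 8.81, 8.62 and 8.94 became 8.37, 8.36, 8.37 and 8.43, a change of -0.48 (SE 0.13, adjusted p = 0.0164). That change was -0.65 to -0.26 over the slides, and without scramble replicate 1 it was -0.41 (adjusted p = 0.0614). In eIF6 shRNA cells the polysomal minus subpolysomal difference of Pdcd4 was -2.17.

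Among the genes of the PI3K-AKT step, Pik3cd showed the largest fall. This leukocyte-enriched catalytic subunit read 4.63, 4.80, 5.23 and 4.38 in polysomal scramble and 3.74, 3.84, 3.60 and 3.04 in polysomal eIF6 shRNA samples. The groups did not overlap, and the change was -1.20 (SE 0.28, limma adjusted p = 0.00582), with a call kept when any of the 16 arrays was left out. Both of its kept probes were lower (-0.996 and -1.41), and both were dim, being well above background on 2 and 4 of the 4 polysomal eIF6 shRNA arrays. Its subpolysomal change of -0.61 did not pass (adjusted p = 0.134). It was called with slide as a block (adjusted p = 0.0301), with the brighter probe alone (adjusted p = 0.0459) and without subpolysomal eIF6 shRNA replicate 2 (-0.87, adjusted p = 0.0276). Of 5 macrophage markers, 2 were detected on all 16 arrays, and 1 of the 4 that could be tested was lower in polysomal RNA. Their part in the Pik3cd result was not tested.

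Akt1, one of the AKT kinases, fell in subpolysomal RNA. Its values were 14.81, 14.74, 14.90 and 15.10 in scramble and 14.41, 14.50, 14.47 and 14.50 in eIF6 shRNA cells. These did not overlap, and the change was -0.42 (SE 0.13, limma adjusted p = 0.0260), or 1.34-fold, and ran from -0.60 to -0.31 within slides. The call did not pass without subpolysomal scramble replicate 3 or 4 or eIF6 shRNA replicate 1 or 3 (adjusted p = 0.0537 to 0.0731). It was also lost with 75th percentile scaling (-0.35, adjusted p = 0.128). With spike-in scaling it was lost too (-0.64, adjusted p = 0.9995), where the median of all genes was -0.24. On polysomes, values of 14.82, 14.77, 15.01 and 14.53 in scramble overlapped those of 14.70, 14.72, 14.57 and 14.18 in eIF6 shRNA cells (-0.24, adjusted p = 0.220). Akt2 changed by -0.18 in subpolysomal and 0.19 in polysomal RNA, and neither passed.

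Pik3r1, the p85 alpha subunit that holds PI3K inactive until IRS proteins bind it, rose in polysomal RNA. Values of 8.06, 8.28, 8.20 and 7.88 in scramble became 8.38, 8.32, 8.61 and 8.53, without overlap, a change of 0.35 (SE 0.12, limma adjusted p = 0.0462). The call was at the threshold: it did not pass when any of 12 of the 16 arrays was left out (adjusted p up to 0.133). It was also lost with spike-in scaling, where the median of all genes was -0.48. The change was then -0.13, and 0.35 above that median. Its subpolysomal values of 7.25, 7.37, 7.44 and 7.29 in scramble and 7.41, 7.58, 7.49 and 7.91 in eIF6 shRNA cells overlapped, and the change of 0.26 did not pass (adjusted p = 0.136).

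Rps6ka1, the kinase that acts downstream of ERK and phosphorylates TSC2 and ribosomal protein S6, rose in both fractions. Its subpolysomal values rose from 10.57, 10.84, 10.89 and 10.87 to 11.08, 11.20, 11.18 and 11.13 (0.35, SE 0.087, limma adjusted p = 0.00818). Its polysomal values rose from 11.08, 11.08, 11.11 and 11.31 to 11.51, 11.47, 11.61 and 11.63 (0.41, SE 0.087, adjusted p = 0.00286). Neither pair of groups overlapped, the call held without any 1 of the 16 arrays, and all 4 slides showed a higher value in both fractions. With spike-in scaling, where the median of all genes was -0.48 in polysomal RNA, its polysomal change was -0.03, and 0.45 above that median.

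Grb14 was detected on 3 of 4 polysomal scramble arrays and on 0 of the other 12, and entered the test through that group, so it too had to differ. Polysomal values were 3.36, 2.47, 3.02 and 3.14 in scramble and 2.30, 1.78, 2.48 and 2.20 in eIF6 shRNA cells, with a slight overlap. In the main processing its signal was at least 1.15-fold higher in scramble cells, given with no p for the same reason. Over the alternative settings its fitted log2 change came as near to 0 as -0.13. In subpolysomal RNA neither group was well above background, so its lower value there gives no fold.

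**Figure D4:**
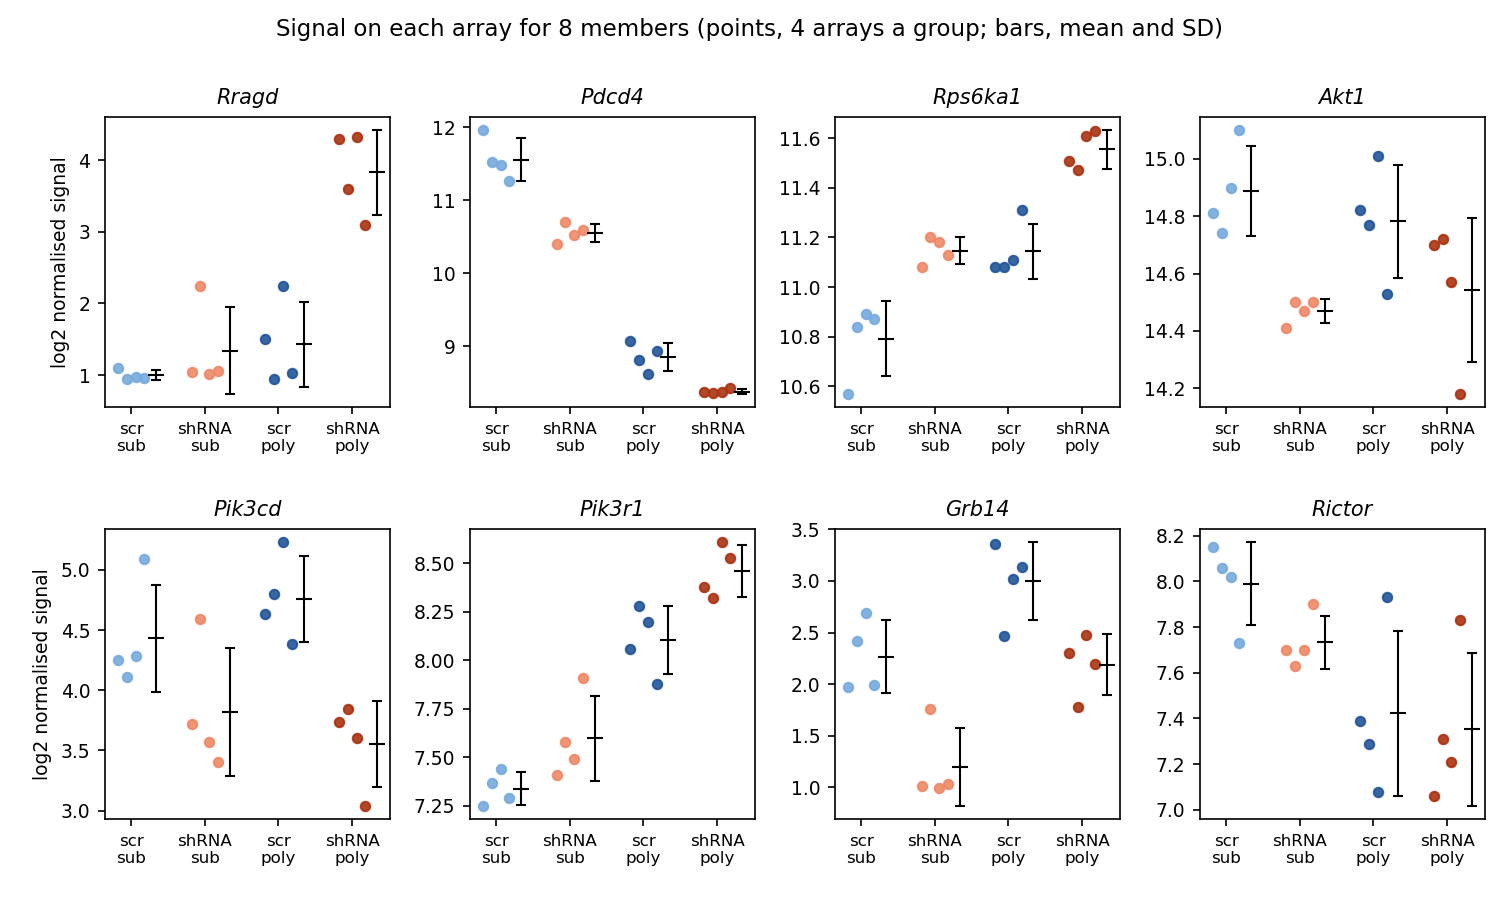
Log2 normalised signal on each array for the 7 members called between the shRNAs and for Rictor, in subpolysomal (sub) and polysomal (poly) RNA of scramble (scr) and eIF6 shRNA cells. Points are the 4 replicates of a group in label order, bars give the mean and SD, and each panel has its own axis, which does not start at 0. Rragd exceeds 3 only on polysomal eIF6 shRNA arrays, and Pdcd4 is lower in eIF6 shRNA cells in both fractions.

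The remaining 29 tested members passed neither comparison between the shRNAs. Their changes lay between -0.21 (Pik3ca) and 0.58 (Tsc2) in polysomal RNA and between -0.32 (Inppl1) and 0.51 (Deptor) in subpolysomal RNA. At the receptor level, Insr changed by -0.20 in subpolysomal and 0.14 in polysomal RNA, and the 95% confidence interval of the polysomal change reached from -0.33 to 0.61. Irs1 changed by 0.39 on polysomes (95% CI -0.35 to 1.12), where replicate 3 of eIF6 shRNA cells read 7.39 and the other 3 arrays 5.47 to 6.12. Irs2 gave -0.06, Shc1 -0.12 and Ptpn1 0.19. Among the mTOR subunits, Mtor gave 0.23, Rptor 0.04, Mlst8 0.01 and Rictor -0.07, with a 95% confidence interval for Rictor of -0.47 to 0.32. Deptor came nearest to the threshold, at 0.51 in subpolysomal RNA (adjusted p = 0.0508). Its scramble values of 4.98, 5.15, 5.52 and 5.52 overlapped the eIF6 shRNA values of 5.98, 6.18, 5.55 and 5.50, both probes were higher (0.60 and 0.42), and the change was called under 6 of 11 alternative settings and without any of 5 single arrays. Inppl1 gave -0.32 in subpolysomal RNA without overlap (adjusted p = 0.0632), and Tsc2 gave 0.58 on polysomes (adjusted p = 0.0951).

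The change in translational efficiency, the polysomal change minus the subpolysomal change, asks whether a transcript shifted between fractions. Of 36 members, 0 fell (against 1.1% of all genes) and 1 was called higher (2.78%, against 0.403%). At an unadjusted p of 0.05, 0 were lower and 3 higher (Rragd, Pdcd4 and Inppl1). The share of all genes at that p was not counted, so this is no result about the members. The called member was Rragd, which entered through the polysomal eIF6 shRNA arrays alone and whose subpolysomal signal was below background in both lines. Its share against the background is therefore no result, and without Rragd and Grb14 limma called 0 of 34 members. The median over the members was 0.13, against 0.02 over all genes, and 5 of 36 members were below 0. The nearest of these to 0 was Pik3ca (-0.02), and 44.7% of all genes lay below it. Under spike-in scaling the median of all genes was -0.21, and 20 of the 35 uncalled members changed sign.

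Pdcd4 came next, at 0.52 (SE 0.19, 95% CI 0.12 to 0.92), and was positive on all 4 slides (0.30 to 0.93), but its adjusted p was 0.243. Inppl1 gave 0.40 (adjusted p = 0.316), Mtor 0.38, Rheb 0.43 and Tsc2 0.46, and Pik3cd gave the lowest value, -0.59 (adjusted p = 0.606). For the receptor Insr the change was 0.34 (95% CI -0.32 to 1.01) and for Akt1 0.18 (95% CI -0.20 to 0.56).

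**Figure D5:**
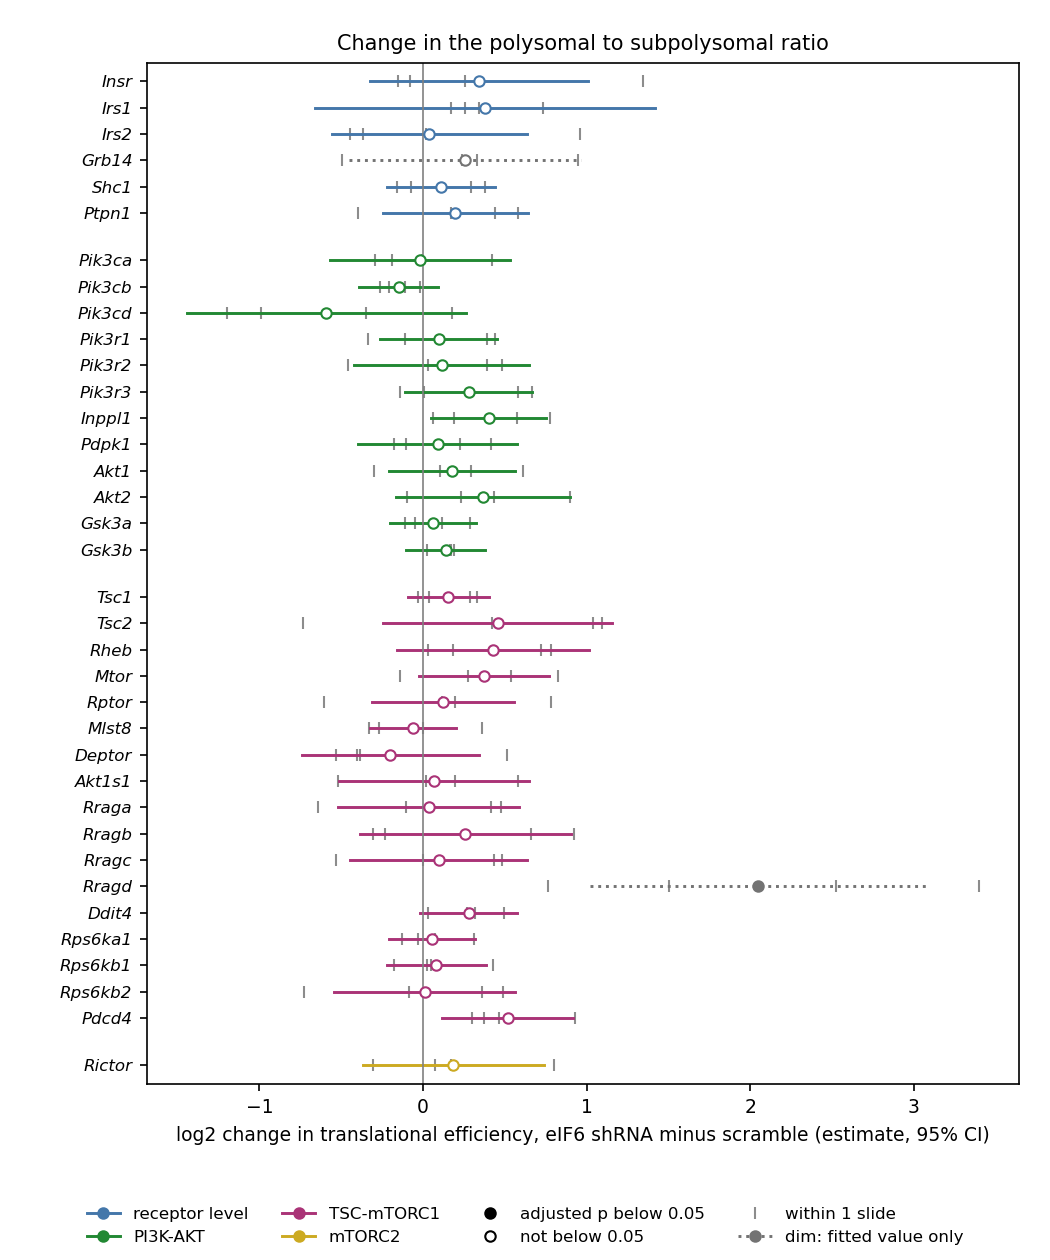
Log2 change in the ratio of polysomal to subpolysomal signal between eIF6 shRNA and scramble cells for 36 members, as the limma estimate with its 95% confidence interval and the value within each of 4 slides (ticks). Rragd alone is filled, but is drawn dotted in grey because its subpolysomal signal was not well above background in either line.

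A further 65 genes of the same pathway steps, from a list kept apart from the 38, were all on the array, and 62 could be tested. In polysomal RNA of eIF6 shRNA cells 9 of them fell (14.5%, against 10.7% of all genes) and 6 rose (9.68%, against 11.1%). The largest falls were those of Prr5, a partner of Rictor in mTORC2 (-1.12, limma adjusted p = 1.48e-06), of Inpp4b, a phosphatase that removes PI3K lipids (-1.01, adjusted p = 6.09e-04), and of Prr5l, which also binds mTORC2 (-0.97, adjusted p = 3.25e-06). The largest rises were those of the class II PI3-kinases Pik3c2g (1.03, adjusted p = 3.73e-05) and Pik3c2a (0.57, adjusted p = 0.0140) and of Sesn3, a sestrin that restrains mTORC1 (0.52, adjusted p = 0.0284). In subpolysomal RNA 9 fell (14.5%, against 12.3%) and 4 rose (6.45%, against 11.9%). In scramble cells 21 were higher (33.9%, against 31.7%) and 16 lower (25.8%, against 28.4%) on polysomes, shares near those of all genes. One of the 62 changed in translational efficiency, ribosomal protein S6 (Rps6), the substrate of the S6 kinases, at -0.48 (SE 0.11, adjusted p = 0.0383).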

How the data were processed

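AML12 cells with a scramble or eIF6 shRNA were measured on 16 arrays. Per the file headers the authors scanned at 5 micrometres and extracted signals with Feature Extraction 10.7.3.1 (10.7.7.1 in the submitters' processing notes). The deposited intensity of each spot was background-corrected and not normalised between arrays. The authors also deposited a table of quantile normalised log2 values, used as an alternative. They were read in R 4.3.3 (data.table package, release 1.17.8). Outlier and control spots were dropped, repeated spots were averaged, and probes were retained if at least 2 arrays within any group exceeded background clearly (the software's well-above-background mark). Log2 values were quantile normalised, probes of a gene name were averaged, and limma 3.58.1 was fitted with 4 group means and Benjamini-Hochberg adjustment at 0.05. The procedure was tested on simulated data. Arrays have no read depth, so their number limits the precision. Bounds compare the bright group's mean with the dimmest signal well above background on each array of the dim group, in the main processing only. The fit did not pair arrays by replicate number and had no slide term. The members and gene lists were chosen with earlier results of these data known. Every member called between the shRNAs was named with array values. Members called only between the fractions were named at least by their difference, and the rest by value or range. Of the other pathway genes, those called in translational efficiency and the 3 largest polysomal changes each way were named.
Alternatives were 75th percentile, spike-in and per-fraction scaling, normexp with offset 50, the deposited log2 table, stricter and absent filters, the brightest probe, slide and replicate blocks, a trended robust fit, and leaving out each array. Figures were drawn with matplotlib 3.10.9.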

Additional observations from a re-analysis of the deposited data

Results flagged for a closer look

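In 14 of 144 member and group combinations, 1 of the 4 arrays lay apart from the other 3, where chance alone gives about 1 in 20, or 7.2. In scramble cells these were subpolysomal replicate 4 for Pik3cd (5.09) and Pdpk1 (10.22), subpolysomal replicate 1 for Rps6ka1 (10.57), polysomal replicate 2 for Irs1 (6.56) and polysomal replicate 4 for Shc1 (11.03) and Rps6ka1 (11.31). In eIF6 shRNA cells they were subpolysomal replicate 2 for Grb14 (1.76), Akt1s1 (10.55) and Rragd (2.25), subpolysomal replicate 4 for Ddit4 (14.91), polysomal replicate 1 for Rheb (5.997) and Ddit4 (15.70), and polysomal replicate 4 for Rragb (6.75) and Pdcd4 (8.43). All values are log2 signals.
Rragd differed between the fractions in its response to the shRNA, with a fitted difference of 2.05 on the log2 scale. It entered the test through the polysomal eIF6 shRNA arrays alone and its subpolysomal signal was not well above background in either line, so this value is no measured fold.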

How the results depend on the processing

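Spike-in scaling moved the results most: 1 member fell and 1 rose in polysomal RNA, 0 fell and 0 rose in subpolysomal RNA, 0 rose in translational efficiency, and 0 were lower and 33 higher on polysomes in scramble cells. It also turned the sign of the polysomal changes of Pik3r1 (-0.13) and Rps6ka1 (-0.032), where the median of all genes was -0.48. The fraction differences of Mlst8 (1.35), Rictor (1.03) and Tsc1 (1.45) turned too, where that median was 1.52. The spike-in signal itself ranged over 1.52 log2 units between arrays. With normexp, 6 members rose in polysomal RNA, and with 75th percentile scaling 1 fell in subpolysomal RNA. Members that rose in subpolysomal RNA numbered 2 with normexp, the deposited log2 table, the filter on all 4 arrays, the brightest probe, slide as a block and the trended robust fit. The rise of Rragd in translational efficiency was lost, leaving 0, with 75th percentile scaling, normexp, the filter on all 4 arrays, no filter, the brightest probe, the replicate block and the trended robust fit. Leaving out 1 array at a time gave 1 to 3 falls and 2 to 5 rises in polysomal RNA, 2 to 5 falls and 1 to 3 rises in subpolysomal RNA, 0 to 1 rises in translational efficiency, and 4 to 5 lower and 14 to 17 higher members on polysomes. The causes were not tested.
The main fit did not pair arrays by replicate number. Deviations of same-numbered arrays from their group means correlated between -0.211 and 0.413, and exceeded 0.1 throughout in 0 of the pairs of groups. The highest value was that of the polysomal arrays with number 4 in both lines. Such correlations cannot show whether same-numbered arrays came from the same culture. For arrays of different groups, deviations correlated with a median of 0.13 on the same slide, against -0.04 on different slides. With a replicate block, the polysomal call of Pik3r1 was also lost (0.35, adjusted p = 0.0644). On arrays, signal over background limits the reading of Rragd, Grb14 and Pik3cd.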
